A study of Mus musculus with 40 samples.

Results

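Sohlh1, Sohlh2, Figla, Lhx8, Nobox, Taf4b, Tbpl2 and Gtf2a1l are transcription regulators with roles in germ cells. Their transcripts were followed in mouse oocytes across 5 stages of follicle growth. Probe sets were taken where the platform annotation gave exactly 1 of these 8 symbols. 7 of the 8 genes had such a probe set, of 18193 genes that had one with a single symbol. They were represented by 9 probe sets, 4 on the Affymetrix mouse array type 430A and 5 on 430B, of 45037 in all. All 9 passed the filter on low signals, which kept 15845 of the 22626 probe sets of 430A and 19115 of the 22411 of 430B. Tbpl2 had no probe set with its symbol on either array type and is described only by its promoter.

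Oocytes came from females of the SJLB6 background and were pooled before RNA was prepared and amplified. A primordial sample held 400 oocytes of mice aged 2 days, a primary sample 90 oocytes at 6 days, and a secondary sample 60 oocytes at 12 days. A small antral sample held 30 oocytes at 17 days, and a large antral sample 20 oocytes at 24 days. Each stage had 4 samples on each array type, 40 samples in all, called biological replicates in the labels without naming animals, so p-values measure the spread between these samples. No genotype or treatment distinguished the stages. Apart from those 3 small antral samples, stage, mouse age and pool size changed together, and they cannot be told apart.

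A follicle is an oocyte with its surrounding somatic cells. Primordial follicles hold resting oocytes, and growth starts at the step from primordial to primary follicle, after which the oocyte enlarges, builds its zona pellucida and stores transcripts for the embryo. SOHLH1 and SOHLH2 are basic helix-loop-helix proteins that form dimers and act early in oocyte differentiation, upstream of Lhx8 and Nobox. FIGLA, of the same protein class, is needed for primordial follicles to form and binds E-boxes (CANNTG) of zona pellucida genes together with an E protein. LHX8, of the LIM homeodomain class, and NOBOX, a homeodomain protein, are needed for oocytes to pass from primordial to growing follicles. TAF4B, TBPL2 and GTF2A1L are germ cell relatives of parts of the basal transcription machinery, namely of TAF4 in the TFIID complex, of the TATA-binding protein TBP, and of the large TFIIA subunit GTF2A1.

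The transcripts did not move as a block. Sohlh1 and Figla signals fell 6.34-fold and 3.04-fold from the primordial to the primary stage and again by 5.95-fold and 3.98-fold from the primary to the large antral stage. Sohlh2 signals were 3.28-fold lower in large antral than in primordial oocytes. Taf4b signals were 2.57-fold lower there on the brightest of its probe sets, which did not behave alike. Lhx8 was lower at every growing stage than in primordial oocytes with no further called change. Nobox and Gtf2a1l went the other way at the start of growth, with Gtf2a1l 2.56-fold and Nobox 1.31-fold higher at the primary stage. Folds here and below are on the scale of signal plus 32, each with 4 samples per stage, and are from the deposited values. The sizes of the Sohlh1, Figla and Sohlh2 changes from the primordial stage depended on 1 primordial array.

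The 250 bases before the annotated start are shown for the genes that fell most (Sohlh1 and Figla) and for those that rose (Nobox and Gtf2a1l), 5′ to 3′ on the gene's own strand, from RefSeq on the build GRCm38.p6. They are shown for the letters that helix-loop-helix proteins such as SOHLH1 and FIGLA bind, and capitals mark these, CANNTG, the E-box. The Sohlh1 window lies at chr2:25847249-25847498 on the minus strand, Figla at chr6:86016941-86017190 on the plus strand, Nobox at chr6:43309555-43309804 on the minus strand, and Gtf2a1l at chr17:88668410-88668659 on the plus strand.
Sohlh1: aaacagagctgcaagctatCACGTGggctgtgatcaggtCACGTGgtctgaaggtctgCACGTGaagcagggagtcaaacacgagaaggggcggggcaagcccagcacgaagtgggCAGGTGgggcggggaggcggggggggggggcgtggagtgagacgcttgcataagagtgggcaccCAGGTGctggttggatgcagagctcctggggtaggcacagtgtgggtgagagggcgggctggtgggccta
Figla: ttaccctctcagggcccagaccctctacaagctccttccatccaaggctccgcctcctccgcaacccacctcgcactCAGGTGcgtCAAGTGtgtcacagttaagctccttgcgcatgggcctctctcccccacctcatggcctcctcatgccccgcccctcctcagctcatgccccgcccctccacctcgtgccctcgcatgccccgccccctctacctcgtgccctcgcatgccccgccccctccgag
Nobox: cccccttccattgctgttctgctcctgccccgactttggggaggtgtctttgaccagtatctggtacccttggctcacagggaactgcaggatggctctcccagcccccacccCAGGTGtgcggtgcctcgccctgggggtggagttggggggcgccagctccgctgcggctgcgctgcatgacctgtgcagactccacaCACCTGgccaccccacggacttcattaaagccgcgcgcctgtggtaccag
Gtf2a1l: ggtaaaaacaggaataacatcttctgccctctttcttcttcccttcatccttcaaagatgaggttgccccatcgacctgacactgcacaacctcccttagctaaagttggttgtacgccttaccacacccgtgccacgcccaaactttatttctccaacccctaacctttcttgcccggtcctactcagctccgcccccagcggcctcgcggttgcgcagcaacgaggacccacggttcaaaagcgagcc

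The Sohlh1 window held 5 E-boxes, of which 3 read CACGTG, from 231 to 226, 211 to 206 and 192 to 187 bases before the start. At least 5 E-boxes were found in 1.15% of 32851 promoters of the same length, and at least 1 CACGTG in 6.02%. The CACGTG form was added to the search after these letters were seen. Figla and Nobox each held 2 E-boxes, as did at least 31.8% of promoters counting those with more, and Gtf2a1l held none. Among the members not shown, Tbpl2 (chr2:24096596-24096845, minus strand) held 4 E-boxes, a number reached by 3.84% of promoters. Sohlh2 (chr3:55181794-55182043, plus strand) held 1, and Lhx8 (chr3:154330561-154330810, minus strand) held none. At least 1 E-box was present in 66.2% of all promoters. None of the 7 windows held TAATTG or TAATTA, core letters of homeodomain sites, or TATAAA, the TATA box, on either strand, against 11.3% and 12.4% of all promoters. Motifs were searched on both strands, CACGTG is a form of CANNTG, and a match describes letters only. 7 of the 8 genes had a promoter entry, and Taf4b was named only.

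The primordial samples have a form that touches every comparison with that stage. It also touches the p-values of comparisons between growing stages, since all stages of a fit share 1 estimate of the spread. On both array types, the deposited values of primordial replicates 2, 3 and 4 had the form of a mean with replicate 1. Replicate 2, 3 or 4 times 2, less replicate 1, never fell below 0 among 22526 430A and 22411 430B probe sets. In each of 48 ordered pairs of samples of other stages, this arithmetic gave from 1120 to 2857 negative values on 430A and from 1989 to 3790 on 430B. The values so obtained are called unmixed below, and comparisons of named genes with the primordial stage are given with them too, because the deposited samples share an array and their spread is too small for 4 separate samples. In addition, 3 of the 4 small antral samples on 430B (replicates 2 to 4) have an extraction text that names 12 days and 60 oocytes, as for secondary samples, which touches Sohlh1, Sohlh2 and Taf4b.

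**Figure D1:**
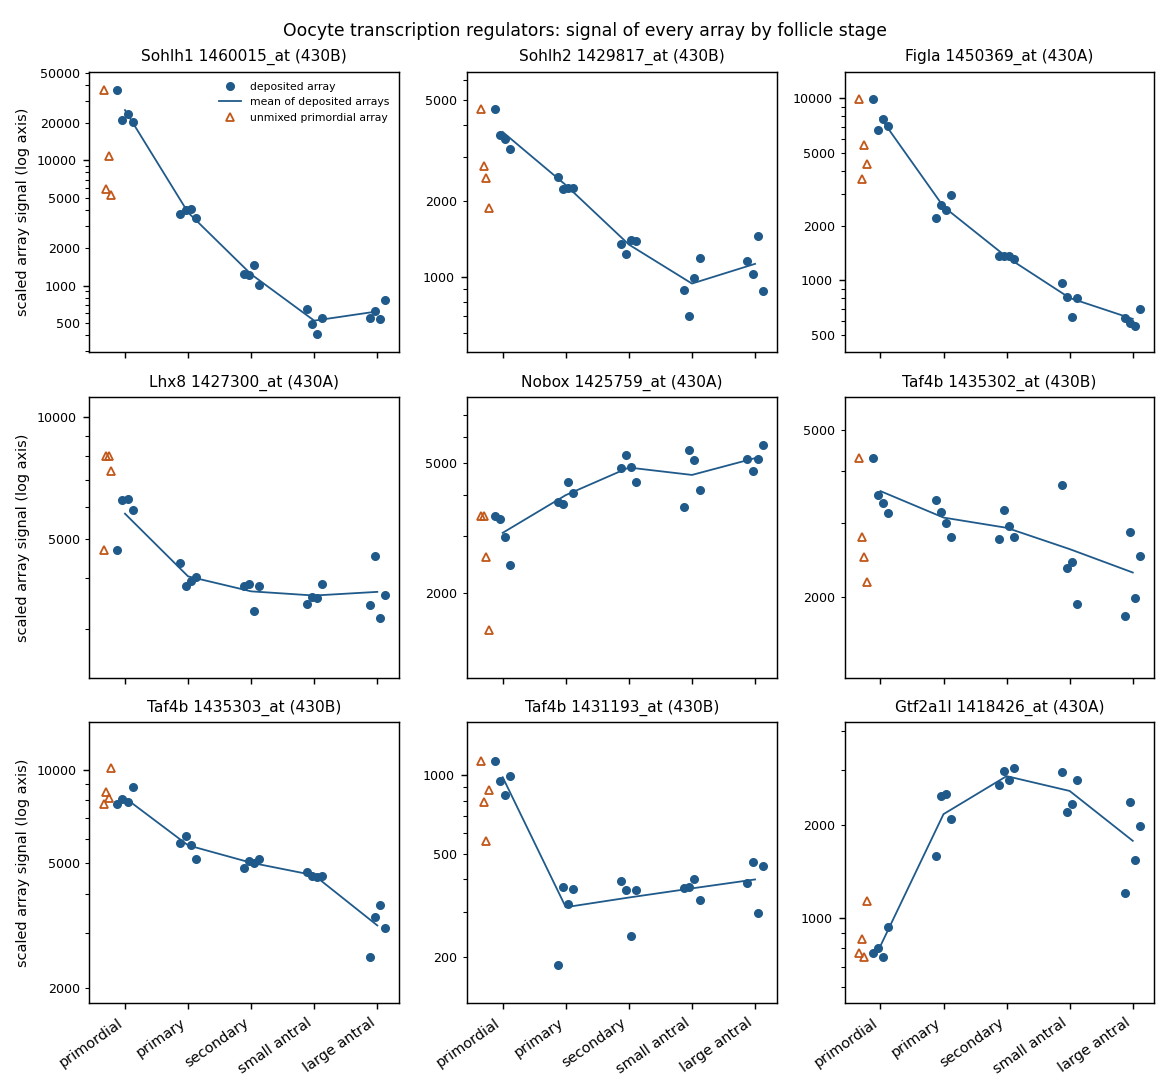
Signal of each of the 9 probe sets, 1 panel each, at the 5 stages (x axis), on a log axis of array signal scaled to a trimmed mean of 500. Filled points are the 4 deposited arrays of a stage, lines join their means, and open triangles are the unmixed primordial arrays. Sohlh1 and Figla step down at the first 3 transitions, Nobox and Gtf2a1l lie lowest in primordial oocytes, and Lhx8 samples of the 4 growing stages overlap.

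Sohlh1, which acts early among these regulators, had the largest fold change of the 9 probe sets in any comparison of stages. Its signals (1460015_at, 430B) in the 4 primordial samples were 36220.5, 20810.1, 23313 and 20401, and the unmixed values were 36220.5, 5901, 10835.5 and 5241. The primordial replicate 1 stood far above the others, and all 4 values stayed above every primary sample with either form. In primary samples the signals were 3743, 4037, 4093 and 3479, and in secondary samples 1231, 1225, 1464.5 and 1004.5. Small antral samples gave 646, 493, 409 and 551.5, and large antral samples 556, 629, 539 and 764. From primordial to small antral, neighbouring stages did not overlap, whereas the antral stages overlapped each other.

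From primordial to primary the Sohlh1 log2 change was -2.67 ± 0.16 (SE, adjusted p = 3.28e-12). With unmixed values it was -1.45 ± 0.36 (adjusted p = 0.00396), and with primordial replicate 1 also left out, a choice made once the values were known, it was -0.85 (adjusted p = 0.00302). The direction and the call held in each case, while the size depended on that 1 array. Sohlh1 fell further, with changes of -1.62 ± 0.16 from primary to secondary (adjusted p = 4.07e-07) and of -1.19 ± 0.16 from secondary to small antral (adjusted p = 2.65e-05). In the fit with unmixed values the step from primary to secondary was ± 0.36 (SE) and still called (adjusted p = 0.0114). The step from secondary to small antral was not called in that fit (adjusted p = 0.082). Nor was it called without the 3 small antral samples of uncertain label (-0.89, adjusted p = 0.0708). No change was called between the antral stages (0.24, adjusted p = 0.636). Over the whole course Sohlh1 was 37.8-fold lower in large antral than in primordial oocytes (log2 -5.24 ± 0.16, adjusted p = 3.91e-18). The change was -4.02 with unmixed values and -3.43 when primordial replicate 1 was left out of them too, so its size also depended on that array.

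Sohlh2, whose protein pairs with SOHLH1, declined over a smaller range. Its signals (1429817_at, 430B) were 4623, 3657.5, 3514 and 3205 in primordial and 2494.5, 2239, 2261 and 2259 in primary samples. The deposited stages did not overlap, but the unmixed primordial values of 4623, 2762, 2463 and 1879 reached into the primary range. The log2 change was -0.68 ± 0.15 (adjusted p = 0.00114), against -0.26 with unmixed values (adjusted p = 0.411) and -0.02 without primordial replicate 1 as well (adjusted p = 0.958). Scaling the arrays to the same median gave -0.37 (adjusted p = 0.14), and quantile normalization gave -1.09 (adjusted p = 2.82e-06). A fall of Sohlh2 at the start of growth was therefore called with the deposited values and with quantile normalization, and not with the other alternatives named here.

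During growth Sohlh2 declined. Secondary samples gave 1355, 1231, 1408.5 and 1389.7, all below the primary samples, for a log2 change of -0.77 ± 0.15 (adjusted p = 0.00197, with 0.00311 in a fit without the primordial stage and 0.0507 in the fit with unmixed values). Small antral samples gave 892, 705, 991 and 1187, and large antral samples 1154, 1029, 1455 and 878. The small antral samples lay just below the secondary samples, and the antral stages overlapped. The step from secondary to small antral was -0.52 (adjusted p = 0.0412). It was not called when any of the 4 secondary samples or small antral replicate 1, 2 or 3 was left out (adjusted p from 0.0524 to 0.17), nor in a fit without the primordial stage (adjusted p = 0.0541). From primary to large antral Sohlh2 fell by 1.04 on the log2 scale (adjusted p = 1.18e-05). Its change from primordial to large antral was -1.30 with unmixed values (adjusted p = 2.28e-05).

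Figla followed Sohlh1 in direction at each of the first 3 steps. Its signals (1450369_at, 430A) were 9977, 6675, 7685 and 7022 in primordial samples, with unmixed values of 9977, 3596, 5543 and 4363, and 2208, 2588.5, 2433 and 2937 in primary samples. Primordial replicate 1 was again the highest, and no primordial value of either form reached the primary samples. Secondary samples gave 1362, 1355, 1353 and 1309.6, small antral samples 962.5, 808, 632 and 798 and large antral samples 618, 581, 562 and 694. The 4 secondary samples lay close together, between the primary and small antral samples without overlap, and the antral stages overlapped.

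The log2 change of Figla from primordial to primary was -1.60 ± 0.13 (adjusted p = 1.25e-10), and -1.09 ± 0.21 with unmixed values (adjusted p = 0.000164). Without primordial replicate 1 as well it was -0.80 (adjusted p = 5.4e-05). The decline went on with changes of -0.90 to secondary (adjusted p = 2.02e-05) and of -0.74 to small antral oocytes (adjusted p = 0.000171), each ± 0.13 (SE). Between the antral stages the change of -0.36 was not called (adjusted p = 0.0743), although it was without small antral replicate 3 (adjusted p = 0.0234). From primordial to large antral, Figla fell 12.1-fold (log2 -3.59 ± 0.13, adjusted p = 1.78e-17; -3.08 with unmixed values).

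Among the homeodomain genes, Lhx8 differed between primordial and primary oocytes, and no later pair of neighbouring stages had a called difference. Its signals (1427300_at, 430A) were 4688, 6240.1, 6281 and 5901 in primordial and 4363, 3833, 3947 and 4043 in primary samples. All primordial samples lay above the primary ones, and here replicate 1 was the lowest, so that the unmixed values of replicates 2 to 4 rose to between 7358 and 7999. The log2 change was -0.50 ± 0.11 (adjusted p = 0.000284), and -0.76 ± 0.15 with unmixed values (adjusted p = 0.000167). Later samples gave 3827, 3877, 3323 and 3836 at the secondary, 3459, 3603, 3577 and 3875 at the small antral and 3448, 4539.6, 3185 and 3648 at the large antral stage. All growing stages overlapped. The later steps were -0.12, -0.03 and 0.02 on the log2 scale (adjusted p = 0.487 or above), and primary to large antral was -0.14 ± 0.11 (adjusted p = 0.331).

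Nobox was higher in growing than in primordial oocytes. Its signals (1425759_at, 430A) were 3435, 3379, 2978 and 2437 in primordial and 3794, 3745, 4362.5 and 4056 in primary samples. The stages did not overlap, and the unmixed primordial values of 3435, 3435.5, 2578 and 1541 lay below the primary samples too. The log2 change was 0.39 ± 0.12 (adjusted p = 0.00767), and 0.60 ± 0.19 with unmixed values (adjusted p = 0.0107). Secondary samples gave 4815, 5299.8, 4877 and 4389, small antral samples 3663, 5495, 5107 and 4130.2, and large antral samples 5133, 4733, 5159 and 5682. Secondary and large antral samples all lay above the primary ones, while small antral replicate 1 lay below them. The step from primary to secondary was 0.28 (adjusted p = 0.115), and primary to large antral was 0.37 ± 0.12 (adjusted p = 0.0151). The latter was called in a fit without the primordial stage (adjusted p = 0.00824) but not without large antral replicate 4 (adjusted p = 0.0524) or in the fit with unmixed values (adjusted p = 0.148).

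Taf4b was measured by 3 probe sets on 430B that did not behave alike. The brightest, 1435303_at, gave 7729.6, 8046, 7861.5 and 8823.5 in primordial and 5822, 6137, 5730.0 and 5179.8 in primary samples. Secondary samples gave 4818, 5084, 5028.5 and 5179, small antral samples 4692, 4542, 4525 and 4571 and large antral samples 2500.2, 3378, 3677 and 3101. No neighbouring stages overlapped, with a gap of about 1 signal unit between primary replicate 4 and secondary replicate 4. The called steps were the first, -0.50 ± 0.10 (adjusted p = 0.000295; -0.58 with unmixed values), and the last, -0.54 ± 0.10 (adjusted p = 0.00282). The first was not called with arrays scaled to the same median (-0.19, adjusted p = 0.256). The last was not called without the 3 small antral samples of uncertain label (-0.58, adjusted p = 0.0852) or with only the antral arrays in the fit (adjusted p = 0.0641). From primary to large antral Taf4b fell by 0.86 ± 0.10 (adjusted p = 3.34e-07). Its change from primordial to large antral was -1.44 with unmixed values (adjusted p = 8.77e-10).

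The other Taf4b probe sets gave different courses. For 1431193_at the primordial samples gave 1140.4, 955, 844 and 995 and the primary samples 187, 372, 321 and 366. These did not overlap, the unmixed values of 1140.4, 787, 561 and 876 stayed above the primary samples, and the log2 change was -1.60 ± 0.22 (adjusted p = 2.82e-06; -1.34 with unmixed values). Its later stage means lay between 340 and 398 with overlapping samples, and primary to large antral was 0.35 (adjusted p = 0.36). For 1435302_at, primordial samples gave 4281, 3494, 3357 and 3179, primary samples 3401, 3194, 3003 and 2775 and large antral samples 1796, 2862, 1983 and 2506. Primordial and primary samples overlapped. The change between them was -0.20 (adjusted p = 0.352), 0.11 with arrays scaled to the same median and 0.12 with unmixed values, while quantile normalization gave -0.60 and called it (adjusted p = 0.0055), so it has no settled direction. Primordial to large antral was -0.65 (adjusted p = 0.00189), not called with unmixed values (-0.33, adjusted p = 0.228). The annotation gives 1435302_at and 1435303_at the same source sequence.

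Gtf2a1l was the member with the largest rise. Its signals (1418426_at, 430A) were 771, 802, 753 and 936 in primordial and 1581, 2474, 2505 and 2085 in primary samples. Every primary sample was above every primordial one, and the log2 change was 1.35 ± 0.16 (adjusted p = 1.29e-07), with 1.26 ± 0.19 from unmixed values (adjusted p = 7.78e-06). Secondary samples gave 2672, 2965, 2773 and 3042, small antral samples 2948, 2197, 2338 and 2778 and large antral samples 1206.5, 2369, 1540.0 and 1980.2. Secondary samples lay above all primary and all large antral samples, and large antral samples spread widely. From secondary to large antral Gtf2a1l fell by 0.72 on the log2 scale (adjusted p = 0.00128). The rise from primary to secondary of 0.42 was not called (adjusted p = 0.0743). The change from small to large antral was -0.56 (adjusted p = 0.0288), with overlapping samples. It was not called without small antral replicate 1 (adjusted p = 0.0933) or 4 (0.0773), or without large antral replicate 1 (0.128) or 3 (0.0859). The fit with unmixed values did not call it either (adjusted p = 0.121). Large antral oocytes still had 2.07-fold the primordial signal (log2 1.05 ± 0.16, adjusted p = 3.7e-06; 0.96 with unmixed values).

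**Figure D2:**
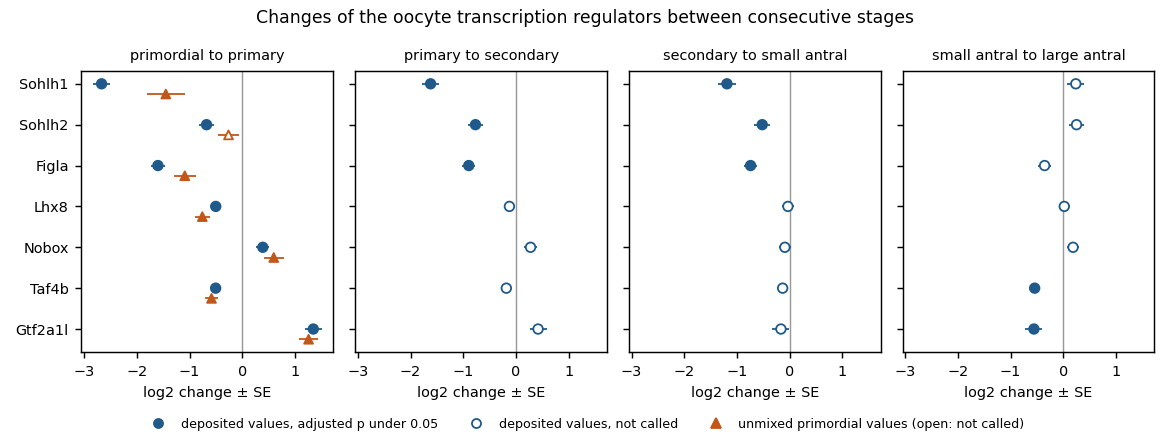
Log2 changes with their standard errors (x axis, later minus earlier stage) of the 7 measured genes (y axis, 1 probe set each) at the 4 consecutive transitions. Circles are deposited values, filled where the adjusted p is under 0.05, and triangles are unmixed primordial values. Sohlh1, Sohlh2 and Figla lie left of 0 in each of the first 3 panels, and Gtf2a1l and Nobox lie right of 0 in the first.

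Counted with 1 probe set per gene, 2 of 7 members rose and 5 fell from primordial to primary. Among 15426 genes tested, 25.3% were called higher and 23.5% lower. The median log2 change was -0.50 over the members and -0.05 over all genes. With unmixed values 2 rose and 4 fell, against 23.4% and 18.2% of all genes. At the later steps no member was called higher. From primary to secondary 3 fell (background 6.75% lower, 9.16% higher), from secondary to small antral 3 fell (8.94% lower, 5.43% higher), and from small to large antral 2 fell (4.37% lower, 2.99% higher). In the fit with unmixed values 2, 1 and 1 members fell at these 3 steps and 0 rose. Shares of all genes in that fit were worked out only for comparisons with the primordial stage. Members were chosen with earlier results of these data known, so these shares describe the members and support nothing further.

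From primordial to large antral 2 members rose and 5 fell, with deposited and with unmixed values. The background was 28.5% higher and 28.3% lower with deposited values, and 26.8% and 23.0% with unmixed values. Within growth, from primary to large antral, 1 member rose and 4 fell, against 17.2% higher and 17.6% lower of all genes. In the fit with unmixed values 0 rose and 4 fell. The median log2 change of the members was -0.86, and that of all genes 0.01. On 430B, which carries Sohlh1, Sohlh2 and Taf4b, the median probe set itself changed by -0.23 from primordial to primary. With arrays scaled to the same median that shift was 0.05, and Sohlh1 then changed by -2.35 (adjusted p = 4.88e-11). The values are shares of each array's total signal, so less transcript per oocyte, a larger total and a smaller share of oocytes among the cells cannot be told apart.

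Genes reported as targets of these regulators were followed next, as a list of 15 that all had a tested probe set. This list and those below were chosen with earlier results of these data known. Their counts beside the shares of all genes therefore describe the lists and support nothing further. From primordial to primary 13 rose and none fell, against 25.3% higher and 23.5% lower of all genes. The median log2 change was 2.18 against -0.05 over all genes. Unmixed values also gave 13 and 0, against 23.4% and 18.2% of all genes, but not for the same genes. Dnmt1 was called with deposited values only (0.43, adjusted p = 0.0473; -0.05 with unmixed values, adjusted p = 0.893), and Kit with unmixed values only (0.59, adjusted p = 0.0375). The smallest adjusted p belonged to Rfpl4, an oocyte RING-finger-like protein, with 119 ± 34.8 in primordial and 5802.5 ± 291 in primary oocytes (mean ± SD, n = 4; log2 5.30 ± 0.14, adjusted p = 3.07e-19). Mos, the kinase that holds the mature egg in meiotic arrest, rose from 245 ± 62.7 to 5904.5 ± 422 (log2 4.45, adjusted p = 7.44e-19). Fgf8, a growth factor that oocytes send to the cumulus cells, rose from 5.6 ± 3.1 to 903 ± 68.1 (log2 4.64, adjusted p = 8.21e-19), the former under the signal of 100 that the filter uses. Those 3 rises had the same size or nearly so with unmixed values, at 5.29, 4.67 and 4.53. Zp2, a zona pellucida gene, and Kit, the receptor for KIT ligand, were the 2 not called with deposited values (-0.05 and 0.07). With unmixed values Zp2 was at -0.43 (adjusted p = 0.0639). Most of the targets on this list rose at the step at which Sohlh1 and Figla fell and Nobox and Gtf2a1l rose. The targets were not sorted by regulator, and a relation to any member was not tested.

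From primary to large antral, 2 of the 15 targets were called higher and 8 lower, against 17.2% and 17.6% of all genes, with a median log2 change of -0.36 against 0.01 over all genes. In the fit with unmixed values 0 were called higher and 5 lower. The wider primordial spread enters that fit, and the share of all genes called in it was not worked out for this comparison. These 2 counts are therefore not to be set against the shares above. Zp1 and Zp3, which encode zona pellucida glycoproteins, fell from 16071 ± 1391 to 9685 ± 825 (log2 -0.73, adjusted p = 1.82e-06) and from 22774 ± 583 to 15569.5 ± 1729.7 (log2 -0.55, adjusted p = 9.99e-05). Padi6, a component of oocyte cytoplasmic lattices, fell from 86878 ± 803 to 53459 ± 999 (log2 -0.70, adjusted p = 1.31e-05). These 3 falls were also called in the fit with unmixed values. At the first step Zp1 and Padi6 had risen, by 2.53 and 1.78 (2.48 and 2.31 with unmixed values). Bmp15, an oocyte growth factor, went from 1098 ± 202 to 1666 ± 249 (log2 0.59, adjusted p = 0.0129), a call lost without primary replicate 1 (adjusted p = 0.0502) and in the fit with unmixed values (adjusted p = 0.0958). Pou5f1, the pluripotency factor also made in oocytes, was at 0.37 (adjusted p = 0.0498) and was not called without primary replicate 2 or 4 or without any 1 of the large antral replicates (adjusted p from 0.051 to 0.155), nor in the fit with unmixed values (adjusted p = 0.312).

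The partners and inhibitors of the helix-loop-helix and LIM proteins moved in both directions. Of 12 genes, all tested, 4 rose and 4 fell from primordial to primary, with a median log2 change of -0.01. Of all genes 25.3% were called higher and 23.5% lower. With unmixed values 5 rose and 4 fell, against 23.4% and 18.2% of all genes. Id1 and Id2, which bind E proteins and keep them off DNA, fell from 1233 ± 386 to 127 ± 9.5 (log2 -2.95, adjusted p = 6.89e-13; -1.64 with unmixed values) and from 873 ± 170.3 to 66.6 ± 9.5 (log2 -3.18, adjusted p = 1.32e-10; -2.67 with unmixed values). The primary mean of Id2 lies under the signal of 100 that the filter uses, so the size of its change depends on the added 32. The E protein genes Tcf4 (log2 -1.27, adjusted p = 3.48e-08; -1.28 with unmixed values) and Tcf12 (log2 -1.29, adjusted p = 1.89e-07; -1.56 with unmixed values) fell too, while Tcf3, which encodes the E protein known to pair with FIGLA, rose from 717 ± 92.3 to 1028 ± 45.9 (log2 0.51, adjusted p = 0.000791; 0.67 with unmixed values). Ldb1, the cofactor that LIM homeodomain proteins bind, rose by 0.68 on the log2 scale (adjusted p = 0.00352; 1.16 with unmixed values) from a primordial mean of 79.4, likewise under 100. Ssbp3, which stabilises LDB1, rose by 0.56 (adjusted p = 5.34e-05; 0.44 with unmixed values).

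Within growth, from primary to large antral, 1 of the 12 rose and 6 fell, against 17.2% higher and 17.6% lower of all genes. The median log2 change of the 12 was -0.23. Tcf12 went from 2085 ± 195 to 178 ± 21.7 (log2 -3.33 ± 0.16, adjusted p = 4.31e-14). Id3 fell from 1084 ± 65.6 to 147 ± 18.7 (log2 -2.65, adjusted p = 7.88e-12), and Tcf3 from 1028 ± 45.9 to 490.1 ± 28.4 (log2 -1.02, adjusted p = 1.93e-07). Tcf4 fell by 0.51 (adjusted p = 0.00474), so that all 3 E protein genes of the list were lower at the large antral stage, as were Sohlh1, Sohlh2 and Figla. Ldb1 was the gene that rose, from 145 ± 28.7 to 319 ± 40.7 (log2 0.99, adjusted p = 0.000144).

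Of 20 genes of TFIID, TFIIA and TFIIB, 19 were tested and Taf9 was not. From primordial to primary 8 rose and 6 fell, against 25.3% higher and 23.5% lower of all genes, with a median log2 change of 0.09. With unmixed values 8 rose and 3 fell, against 23.4% and 18.2% of all genes. Taf3, Taf9b and Taf8, subunits of TFIID, rose by 2.56 (adjusted p = 6.02e-11), 2.51 (adjusted p = 3.25e-13) and 2.29 (adjusted p = 4.9e-13) on the log2 scale, with Taf9b going from 580.5 ± 159.6 to 3373 ± 259. With unmixed values these were 2.26, 3.44 and 2.41. Taf5, a further TFIID subunit gene, changed by -1.08 (adjusted p = 3e-09; -0.87 with unmixed values). Taf10 and the germ cell subunit gene Taf7l were called lower with deposited values (-1.05 and -2.20) but not with unmixed values (-0.51, adjusted p = 0.0572, and -1.09, adjusted p = 0.077). The primary mean of Taf7l was 36.5, so the size of its change depends on the added 32 as well. From primary to large antral 8 rose and 4 fell, against 17.2% higher and 17.6% lower of all genes, with a median of 0.27. In the fit with unmixed values 6 rose and 3 fell, without a share of all genes worked out for that fit. Taf12, Taf5 and Tbp rose by 1.29, 0.78 and 0.70 (adjusted p = 2.58e-07, 1.07e-06 and 5.78e-05). Tbpl1, a relative of Tbp, changed by -1.93, Taf1, the gene of the largest TFIID subunit, by -1.08, and Taf7 by -0.52 (adjusted p = 1.78e-06, 0.00037 and 0.00214).

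The general relatives of the germ cell factors were set beside them, outside the naming rule, because of that kinship. Taf4, the relative of Taf4b, went from 223 ± 69.1 in primordial to 695 ± 140.3 in primary oocytes (log2 1.53, adjusted p = 6.59e-07; 2.26 with unmixed values), where Taf4b fell by 0.50 on its brightest probe set. That fall was not called with arrays scaled to the same median (-0.19, adjusted p = 0.256). Of the other Taf4b probe sets, 1431193_at fell by 1.60 and 1435302_at had no called change (-0.20, adjusted p = 0.352; 0.12 with unmixed values). Gtf2a1, the relative of Gtf2a1l, rose from 339.9 ± 66.8 to 576 ± 76.2 (log2 0.72, adjusted p = 0.000472; 1.01 with unmixed values) and on to 1087 ± 59.5 at the large antral stage (log2 0.89 from primary, adjusted p = 7.7e-05). Gtf2a1l also rose at the first step, and its change from primary to large antral was -0.30 (adjusted p = 0.147). Tbp, the relative of Tbpl2, was at 669 ± 47.7 in primordial, 768 ± 74.6 in primary and 1277.5 ± 217 in large antral samples. Its first step was 0.19 (adjusted p = 0.202), and 0.24 with unmixed values (adjusted p = 0.173). Levels of different probe sets were not compared, and differences between relatives were not tested.

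**Figure D3:**
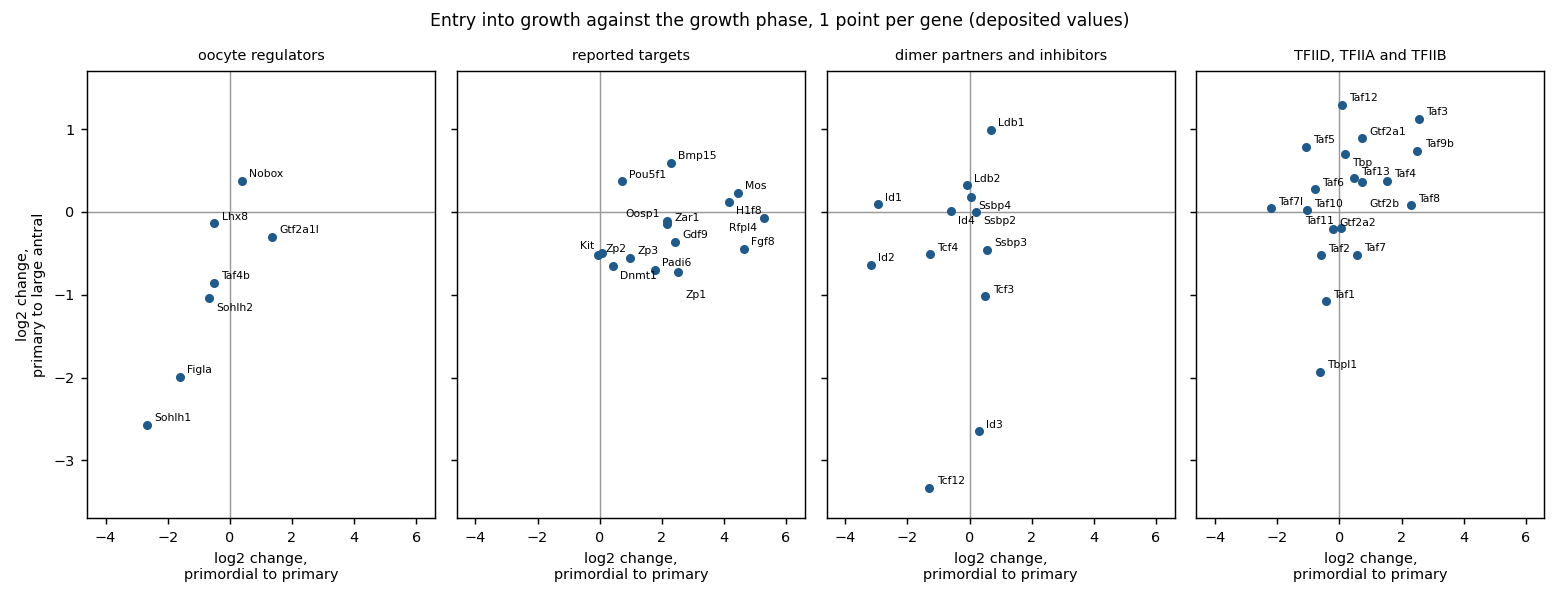
Log2 change from primordial to primary (x axis) against log2 change from primary to large antral (y axis), 1 point per gene, deposited values, for the measured regulators and the 3 lists of related genes. Both axes use the primary arrays, so the scatter within a panel is shown for reading single genes only. Sohlh1 and Figla lie low on both axes, the reported targets lie mostly to the right of 0, and Tcf12 and Id3 lie lowest on the y axis.

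The labelled cell type was checked with oocyte markers, of which 10 of 10 had a mean signal of at least 100 at every stage. Their summed 430A signal was between 62563 and 87242 in primordial, 133288 and 138116 in primary, and 94414 and 104808 in large antral samples. Zp1, Zp2, Zp3, Gdf9, Bmp15, Oosp1 and Kit are also among the reported targets. The sum is therefore not a measure of oocyte content apart from the changes of those targets. Of 14 granulosa cell markers 11 were tested, and their summed signal over 8 genes of 430A was between 990 and 1272 in primordial, 1216 and 1711 in primary, and 1856 and 2051 in large antral samples. Of these 11 markers 2 rose and 2 fell at the first step, against 25.3% higher and 23.5% lower of all genes. From primary to large antral 3 of them rose and 0 fell, against 17.2% and 17.6% of all genes. Of 10 theca and stroma markers 5 were tested, with 0 rising and 2 falling from primordial to primary. Their 4 genes of 430A summed to between 877 and 1088 in primordial and between 446 and 658 in primary samples. Of 6 surface epithelium markers 3 were tested, with 1 higher and 1 lower at the first step, and of 8 blood and vessel markers 5 were tested, with none called there. The part of these cells in the members' changes was not tested. The ratio of 3′ to 5′ signal of the actin control, a sign of RNA length, was read on 430A. It was 1.77, 2.44, 2.18 and 2.34 (log2) in the 4 deposited primordial samples. Replicate 1, the highest of these in Figla, had the lowest ratio. The other deposited replicates have the form of means with it, so these are not ratios of separate samples. Controls of 430B, which carries Sohlh1, were not used here. The 430A ratio was between 2.28 and 2.47 in secondary, 2.43 and 3.22 in small antral, and 2.57 and 4.16 in large antral samples. The signal of the 18S control was between 4274 and 8823 in primordial samples and between 200.1 and 544.8 in secondary and antral samples of 430A. The part of these in the members' changes was not tested, and control values of primary samples were not used here.

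For each member, the genes with the most similar course over the 20 arrays of its array type were listed by Pearson's r of log2 signals. These are descriptions over arrays that share 5 stage means, among 9594 genes on 430A and 5830 on 430B. Sohlh1 was most like Bhlhb9 (r = 0.984), whose stage means went from 5686 in primordial to 463 in large antral samples, followed by Tmem256 (0.983) and Map7d2 (0.981). Sohlh2 was most like Tlk1 (0.969), Map7d2 (0.965) and Trappc11 (0.963), so that Map7d2 stood on both lists. Map7d2 had stage means of 10858 in primordial, 4097 in primary and 834 in large antral oocytes. Figla was most like Tmem147, Cyb561 and Casp6 (each 0.985). Casp6, a caspase gene, went from 866 to 117.

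Lhx8 was most like Pdpk1 (0.926), Rpia (0.925) and BC005537 (0.916). The genes most like Nobox were Adar (0.925), Fyn (0.924) and Tnks1bp1 (0.921). Adar, which encodes an RNA-editing enzyme, went from a mean of 268 in primordial to 884 in large antral samples, and Fyn, a kinase gene, from 1248 to 2821. Taf4b was most like Abi2 (0.967), Paqr3 (0.955) and Zfp715 (0.954), of which Zfp715 went from 8175 in primordial to 305 in large antral samples. Gtf2a1l was most like Rnf14 (0.947), Ebpl (0.941) and Stx18 (0.938), each with its highest mean at the secondary stage. Rnf14 had a mean of 971 in primordial and 3153 in secondary samples.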

How the data were processed

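The authors deposited 1 table per array type with array signals per probe set, a linear intensity made with MAS5 per the submitters' processing notes, with version and scaling target not given in the sources used here. Groups came from the sample titles. Signals were brought to a trimmed mean of 500 per array (2% trimmed at each end) and tested as log2(signal + 32), so low signals show smaller fold changes. Probe sets with at least 4 of 20 arrays at 100 or more were tested in limma 3.58.1 (R 4.3.3; lmFit and eBayes with a trend, two-sided), each array type fitted apart with all 20 arrays, stage alone and 15 residual degrees of freedom. P-values were adjusted by Benjamini-Hochberg over all probe sets tested in an array type and comparison, with 0.05 as threshold for a call. A gene was represented by 1 probe set, 430A before 430B, then the highest mean signal. The procedure was tested on simulated arrays.

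Named genes are all member probe sets, up to 3 called genes per list and direction with the smallest adjusted p in primordial to primary and in primary to large antral, and the 3 most similar genes per member. Members and lists were chosen with earlier results of these data known. Alternatives were another pseudocount (16), quantile and median scaling, no filter, unmixed primordial values, fewer stages in the fit, a replicate block, leaving out each replicate, and leaving out 3 small antral samples. Unmixed values leave out 100 probe sets of 430A that lay off the 0.1 grid at other stages, and the check allowed negative values down to 0.05. Same-numbered samples did not deviate together. After scaling, the share of signals at 100 or more was 57.4% to 64.7% per 430A array and 65.8% to 77.9% per 430B array. The number of arrays limits the precision.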

Additional observations from a re-analysis of the deposited data

Results flagged for a closer look

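In 2 of 45 groups of 4 samples a sample stood apart from the other 3 by a gap above Dixon's 95% critical value, which chance exceeds in about 1 group in 20. For Sohlh2 (1429817_at) the highest primary sample had a signal of 2494.5, and its gap to the next made up 0.916 of the range. For Lhx8 (1427300_at) the lowest secondary sample had a signal of 3323, with a gap of 0.91 of the range. Without that sample, no call of the gene between its stage and a neighbouring stage was lost or gained.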

How the results depend on the processing

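Over 90 comparisons of member probe sets, 1478 of 1544 values under alternatives kept their call, and their direction where called, 53 lost the call, 11 gained it and 2 reversed. The reversals were both of Taf4b 1435302_at from primordial to small antral, -0.49 as reported, which was 0.0353 with unmixed values and without primordial replicate 1 (chosen after the data were seen) and 0.0593 without the 3 small antral samples of uncertain label. Counts of member genes called moved too. From primordial to primary 7 became 6 with unmixed values and 5 under median scaling of the arrays. From primary to large antral 5 became 4 with unmixed values, and ranged from 4 to 6 when single replicates were left out. From primary to secondary 3 became 5 with only the stages compared in the fit and 2 with unmixed values. From secondary to small antral 3 became 1 with unmixed values and 1 without the 3 small antral samples, and 2 under median scaling, quantile normalization, no filter, only the stages compared or no primordial stage. From small to large antral 2 became 1 with unmixed values, 1 when primordial replicate 1 was left out of them too, 0 with only the stages compared in limma (3 of 7 at an unadjusted p under 0.05), and 1 without the 3 small antral samples, and ranged from 1 to 3 when single replicates were left out (1 without small antral replicate 1 or 4 or large antral replicate 1 or 3). Reported targets called from primary to large antral went from 10 to 5 with unmixed values, a fit in which the wider primordial spread enters the shared variance, and were 11 in a fit without the primordial stage. A fit with the replicate number as a block changed no call, with 7 members called from primordial to primary as before, and correlations of same-numbered samples lay between -0.11 and 0.13. Low signals were limited by the number of arrays.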
